A study of Mus musculus with 10 samples.

Results

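The regions described here are stretches of DNA between 5 and 50 kb from the nearest transcriptional start site (TSS) whose methylation differed between stromal cells of gut-draining mesenteric lymph nodes (mLN) and of skin-draining peripheral lymph nodes (pLN). They were taken from the authors' 2 lists of differentially methylated regions (DMRs) for mLN against pLN, one called in specific pathogen-free (SPF) mice and one in germ-free (GF) mice, by the distance that these lists give. The 289 SPF-called and 515 GF-called DMRs that met this limit merged, where they overlapped by at least 1 bp, into 608 of the 1586 location regions of the series. The other regions lay within 2 kb (314), between 2 and 5 kb (200) or beyond 50 kb (464) of a TSS. The distance rule used no methylation value, but every region had been called for a location difference. Levels in the mice of the call are therefore a description, and tests were made in the mice that had no part in it.

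Whole-genome bisulfite sequencing had been performed on genomic DNA of podoplanin-positive (gp38+) stromal cells negative for CD45, CD31 and Ter119, sorted from adult BALB/c mice. The 10 libraries comprised 3 of mLN SPF, 2 of mLN GF, 3 of pLN SPF and 2 of pLN GF, with groups taken from the titles, since the source label of the pLN libraries also carries the word mesenteric. No group carried a treatment or an engineered allele. The study used female mice where it does not state otherwise. It gives overlapping age ranges for GF and SPF mice, with that of SPF mice starting and ending later, so age and housing are not fully separate. The mLN were small-intestinal and colon- or caecum-draining nodes, and the pLN were inguinal and axillary or popliteal nodes. The GF colony had its own origin, by caesarean section at another institution, and the facility that kept the mice of each GF library is not given, so colony and housing cannot be told apart, and 1 further replicate of each GF group, excluded by the authors as an outlier, was not used here. Nothing in the labels says which libraries came from separate mice, so p-values measure the spread between these libraries. The sorted cells are a mixture of stromal subsets, and a changed share of a subset and changed methylation within cells cannot be told apart. A fraction of reads carries no expression, so the sort was not checked with marker genes. Of the marker lists, 0 regions lay nearest to a stromal or mural marker, 1 to an endothelial marker (Kdr, 38.4% in mLN SPF and 66.6% in pLN SPF) and 1 to a haematopoietic marker (Dock2, 77.5% and 52.9%). The part of other cell types in the results was not tested.

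Methylation of cytosine in CpG dinucleotides is copied at cell division and is low where transcription factors occupy DNA. Outside promoters, most CpGs of a mouse cell are methylated, and stretches of low or intermediate methylation often mark enhancers, which act on genes over a distance. In mesenchymal cells many such stretches lie beside genes for transcription factors that lay out the body plan, and their state can record where in the body a cell arose.

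To show what these regions look like, 300 bases around the centre of 6 of them are given. They were chosen by the size of the difference in both housing conditions or because several regions lay at the same gene. The sequences are the GRCm38 reference of RefSeq, forward strand, and the capitals mark the CpGs measured in the libraries. BALB/c DNA can differ from this reference at single bases. The first 2 were more methylated in mLN and lie at chr19:43600949-43601248 beside Gm20467 and Nkx2-3 and at chr1:23989074-23989373, where the nearest TSS carries no gene name and the nearest coding gene is Sdhaf4. The other 4 were less methylated in mLN and lie at chr9:87737290-87737589 upstream of Tbx18, chr19:59470079-59470378 downstream of Emx2, chr1:120612677-120612976 downstream of En1 and chr5:119841746-119842045 over a coding exon of Tbx5.
Gm20467 window: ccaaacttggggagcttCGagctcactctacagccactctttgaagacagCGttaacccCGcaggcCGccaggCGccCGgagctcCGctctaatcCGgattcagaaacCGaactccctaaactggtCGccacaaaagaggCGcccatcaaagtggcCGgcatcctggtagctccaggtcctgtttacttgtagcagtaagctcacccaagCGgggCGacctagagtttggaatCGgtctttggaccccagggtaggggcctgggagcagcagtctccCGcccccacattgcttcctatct
Chromosome 1 window: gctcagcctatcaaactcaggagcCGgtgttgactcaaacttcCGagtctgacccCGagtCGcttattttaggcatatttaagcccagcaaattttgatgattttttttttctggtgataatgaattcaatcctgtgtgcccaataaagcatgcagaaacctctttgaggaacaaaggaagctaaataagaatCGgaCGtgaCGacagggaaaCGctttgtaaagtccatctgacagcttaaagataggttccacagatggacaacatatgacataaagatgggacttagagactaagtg
Tbx18 window: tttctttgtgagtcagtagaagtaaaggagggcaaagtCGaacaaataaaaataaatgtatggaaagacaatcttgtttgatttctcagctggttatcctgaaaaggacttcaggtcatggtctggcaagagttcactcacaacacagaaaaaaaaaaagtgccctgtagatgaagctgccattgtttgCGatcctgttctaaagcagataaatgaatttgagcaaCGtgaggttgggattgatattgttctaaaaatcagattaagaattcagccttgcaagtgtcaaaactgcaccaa
Emx2 window: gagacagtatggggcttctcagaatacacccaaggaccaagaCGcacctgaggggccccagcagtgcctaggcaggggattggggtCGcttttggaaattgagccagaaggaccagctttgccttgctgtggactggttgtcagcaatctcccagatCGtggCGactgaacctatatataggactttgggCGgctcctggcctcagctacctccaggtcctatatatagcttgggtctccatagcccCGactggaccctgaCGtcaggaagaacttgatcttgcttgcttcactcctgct
En1 window: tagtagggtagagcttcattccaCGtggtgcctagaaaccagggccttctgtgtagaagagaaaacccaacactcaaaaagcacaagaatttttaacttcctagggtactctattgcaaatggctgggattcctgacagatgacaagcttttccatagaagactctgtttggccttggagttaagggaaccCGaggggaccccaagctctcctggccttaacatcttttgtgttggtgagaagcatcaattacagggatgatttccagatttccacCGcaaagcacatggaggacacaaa
Tbx5 window: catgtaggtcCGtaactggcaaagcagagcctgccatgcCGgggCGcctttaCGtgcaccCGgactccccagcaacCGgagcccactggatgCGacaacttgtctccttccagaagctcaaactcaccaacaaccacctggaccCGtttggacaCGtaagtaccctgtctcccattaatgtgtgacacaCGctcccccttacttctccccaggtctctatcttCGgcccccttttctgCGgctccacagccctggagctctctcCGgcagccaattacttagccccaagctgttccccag
Over the 16 CpGs of the Gm20467 window, mLN SPF libraries averaged 78.3% (SD 9.54, n = 3), mLN GF libraries 80.7% (SD 21.3, n = 2), pLN SPF libraries 5.42% (SD 2.48, n = 3) and pLN GF libraries 12.4% (SD 2.43, n = 2). The 8 CpGs of the chromosome 1 window stood at 87.7% (SD 1.44) and 81.9% (SD 2.65) in the mLN groups and at 22.8% (SD 12.4) and 22.4% (SD 11.9) in the pLN groups, SPF first. Both windows were thus mostly methylated in mLN and mostly unmethylated in pLN. The Emx2 window, with 7 CpGs, had the mirror image, with 16.1% (SD 3.2) and 5.71% (SD 0.646) in mLN against 83.2% (SD 5.1) and 74.2% (SD 4.81) in pLN. In the Tbx5 window, with 13 CpGs, mLN was almost free of methylation (4.5%, SD 3.24, and 1.4%, SD 0.777) and pLN was intermediate (52.4%, SD 3.5, and 50.9%, SD 4.71). The Tbx18 and En1 windows held 3 CpGs each, so fewer measurements stand behind their means of 31.9% (SD 12.1) and 19.4% (SD 1.51) in mLN SPF against 89.3% (SD 7.35) and 74.6% (SD 8.73) in pLN SPF.

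The distal regions were short, poor in CpGs and of intermediate methylation. Their median width was 555.5 bp with 12 CpGs and 1.93 CpGs per 100 bp, and in total they covered 432141 bp and 8991 CpGs. The ratio of CpGs observed to those expected from the base composition had a median of 0.367, and 4 of 608 regions (0.658%) met the usual limits of a CpG island (ratio above 0.6, GC above 50% and at least 200 bp). The median level was 36.9% in the node with the lower methylation and 68.7% in the other. In 26 regions the lower side was under 10%, and in 12 the higher side was over 90%. By position, 302 regions were intergenic, 226 intronic, 44 overlapped a coding exon, 18 a UTR and 18 a non-coding exon.

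Of the 608 regions, 309 were more and 299 less methylated in mLN than in pLN, so 50.8% were more methylated. This share moved with the distance. It was 38.5% of the 169 regions between 5 and 10 kb, 52.3% of the 237 between 10 and 25 kb and 59.4% of the 202 between 25 and 50 kb. The regions closest to a TSS had shares of 35.4% (within 2 kb) and 41.0% (2 to 5 kb), and those beyond 50 kb had 62.3%. The share of the distal regions therefore lay between those of nearer and of farther regions, and passed 50% inside the range. These are counts of called regions, given without a test. More methylated regions were intergenic in 57.9% and intronic in 31.7%, and less methylated regions in 41.1% and 42.8%. The GC content was 45.6% and 47.9% (medians).

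**Figure D1:**
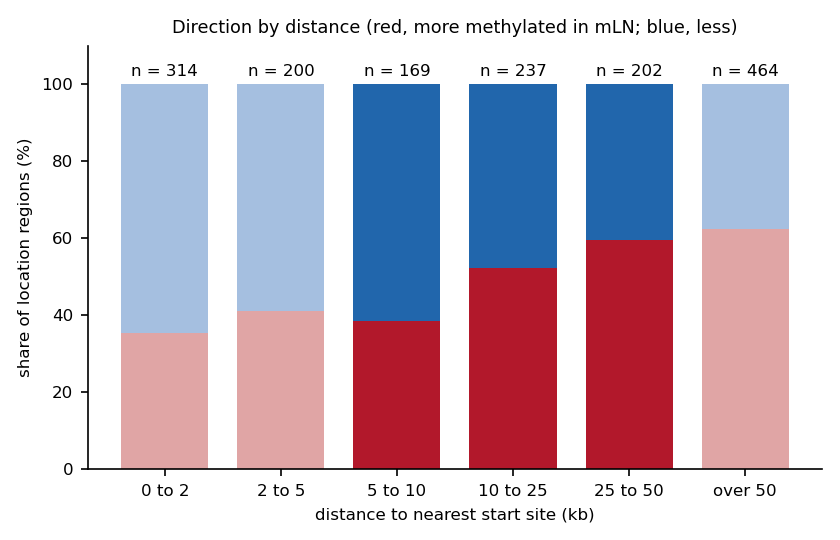
Share of the merged location regions that were more methylated in mLN (red, from the bottom) or less methylated in mLN (blue), in percent of each distance range from the nearest TSS, with the number of regions above each bar. Full colours are the distal regions (5 to 50 kb) and pale colours the other location regions, and the red share is 38.5% in the nearest of the 3 distal ranges and 59.4% in the farthest.

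The libraries of each node kept close together. In the 309 more methylated regions, libraries of mLN averaged 67.5% under SPF (SD 1.62, n = 3) and 68.8% under GF housing (SD 0.626, n = 2), and libraries of pLN 38.8% (SD 1.23, n = 3) and 38.3% (SD 0.122, n = 2). In the 299 less methylated regions, mLN averaged 38.4% (SD 2.38) and 35.2% (SD 0.488), and pLN 63.5% (SD 0.711) and 66.7% (SD 0.282), SPF again first. Values were present for 99.6% to 99.9% of these CpGs, depending on the library, but the number of reads behind each value was not used here.

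Whether the location difference was present without a role in the call was tested by measuring each list in the other housing condition. Of the 289 SPF-called DMRs, 260 (90.0%) were called in the 4 GF libraries by limma, with an adjusted p under 0.05 and the direction of the SPF call. Of all 806 SPF-called location DMRs, 89% were called, so the distal share was near that of the whole list. The direction was kept in 283 of the 289, the 2 mLN and the 2 pLN libraries did not overlap in 272 (94.1%, against 93.7% of the whole list), and the mean difference was 31.4 points with a pooled SD between libraries of 0.443 points. Of the 515 GF-called DMRs, 429 (83.3%) were called in the 6 SPF libraries, against 82.4% of all 1293. Here 507 of 515 kept the direction, 422 (81.9%, against 81.4% of the whole list) had nodes that did not overlap, and the mean difference was 27.6 points with a pooled SD of 1.37 points. In both tests 0 distal DMRs were called by limma in the opposite direction.

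Regions called in both conditions were longer than the others, which in part follows from merging at least 2 DMRs. The 165 regions that held an SPF-called and a GF-called DMR had a median of 23 CpGs and 1119 bp, the 123 called in SPF mice alone had 9 CpGs and 528 bp, and the 320 called in GF mice alone had 8 CpGs and 406 bp. The last group still had a median difference of 22.6 points in SPF mice, and the SPF-called group had 24.6 points in GF mice. In 158 of the 165 shared regions, the 5 mLN libraries lay apart from the 5 pLN libraries. Across the 608 regions the SPF and the GF difference had a Pearson r of 0.951, and r was 0.711 within the more methylated and 0.736 within the less methylated regions. The 2 differences have no library in common, but each region was called for a difference in one or both of them.

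**Figure D2:**
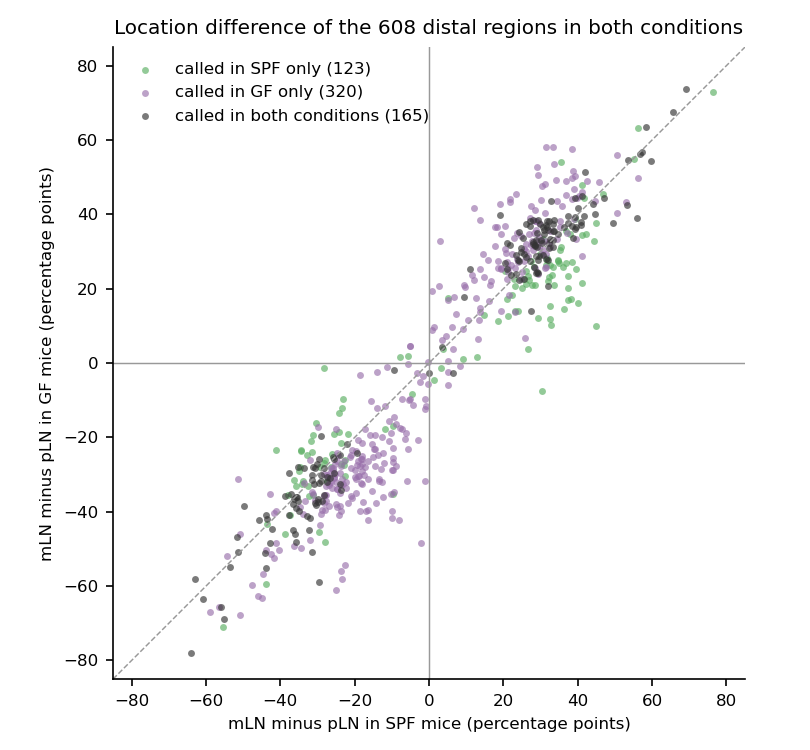
Difference of mLN minus pLN in percentage points for each of the 608 distal regions, in SPF mice (x axis) against GF mice (y axis), coloured by the condition in which the region was called. The dashed line marks equal differences, and most points lie in the quadrants where both conditions have the same sign.

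The widest regions were chosen among those called in both conditions by the smaller of their SPF and GF differences, so their values in both are a description, with no test. The widest gaps with more methylation in mLN were at Gm20467, an annotated transcript whose nearest coding gene is Nkx2-3, a homeobox gene needed for gut-associated lymphoid tissue and spleen. The region 7803 bp downstream of the Gm20467 start (chr19:43601952-43602821, 17 CpGs, intergenic) had 82.0%, 76.5% and 69.3% in mLN SPF, 78.8% and 85.8% in mLN GF, 2.58%, 8.34% and 9.85% in pLN SPF and 7.66% and 9.73% in pLN GF. No mLN library came near a pLN library. The difference of mLN minus pLN was 69.0 points in SPF and 73.6 points in GF mice. The neighbouring region with 59 CpGs (chr19:43600519-43601677) averaged 72.0% over the mLN SPF libraries (SD 6.4, n = 3) but 6.33% over those of pLN SPF (SD 0.668, n = 3), and 59 of its 59 CpGs were higher in mLN over all libraries.

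The other widest regions of this direction lay beside genes of varied function. The intergenic region nearest to Sdhaf4 (chr1:23988998-23989448, 16 CpGs) had 87.7%, 84.0% and 80.2% in mLN SPF and 23.2%, 17.6% and 36.1% in pLN SPF. An intron of Slc2a12, a sugar transporter, held a region (chr10:22675800-22676491, 14 CpGs) with 74.4%, 73.1% and 64.3% in mLN SPF and 8.39%, 21.4% and 10.3% in pLN SPF. The groups of both regions were apart in GF mice as well, with differences of 63.4 and 56.7 points. The remaining ones were at 1700037C06Rik, Gm11799 (in an intron of Car8), 1 more Gm20467 region and n-R5s176, with differences between 44.4 and 59.6 points in the 2 conditions.

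Of the 8 widest regions less methylated in mLN, 6 lay at genes for homeobox or T-box transcription factors, 2 of them at En1. Such genes had 18 of the 67 less methylated regions called in both conditions (26.9%) and 40 of all 299 less methylated regions (13.4%). Of the 98 more methylated regions called in both conditions they had 3 (3.06%). Of all 309 more methylated regions, homeobox genes had 12 and T-box genes 1. Genes were assigned by the name at the nearest TSS, which leaves out some regions with a nearest coding gene of these classes. Among those called in both conditions, 3 at Gm20467 (Nkx2-3) were more methylated, as was a region at Gm24940 (Prrx1). Less methylated were 3 at Gm23093 (Meis1) and a region at Gm16064 (Tbx3). Over both directions, homeobox genes had 6.09% and T-box genes 2.63% of the distal regions. Distal regions were 31.1% of the location regions of homeobox genes and 55.2% of those of T-box genes, against 38.3% over all genes. These shares are given without a test. At Tbx18, a T-box gene of mesenchymal progenitors, the region 5581 bp upstream (chr9:87736842-87738036, 18 CpGs, intergenic) had 19.7%, 18.7% and 25.1% in mLN SPF, 16.9% and 8.6% in mLN GF, 86.9%, 82.9% and 85.9% in pLN SPF and 86.6% and 94.6% in pLN GF. The highest mLN library was far below the lowest pLN library. The difference was -64.1 points in SPF and -77.9 points in GF mice. At Shox2, a homeobox gene of limb and heart, the region over a UTR (chr3:66971883-66973330, 28 CpGs) had 8.89%, 15.2% and 16.6% in mLN SPF and 67.6%, 76.7% and 78.8% in pLN SPF. At Emx2, a homeobox gene of the urogenital tract and forebrain, the region 7005 bp downstream (chr19:59469807-59470650, 17 CpGs) had 18.4%, 17.7% and 29.3% in mLN SPF and 86.2%, 85% and 82.9% in pLN SPF. The differences of these regions in GF mice were -63.5 points at Shox2 and -58.1 points at Emx2. At Hlx, a homeobox gene of gut mesenchyme, the region 6577 bp downstream had 20.9%, 32.0% and 19.4% in mLN SPF and 82.3%, 75.9% and 81.7% in pLN SPF. The other 4 were 2 regions of En1, 1 of Zbtb38, a zinc-finger gene that binds methylated DNA, and 1 of Sprr2a3, a gene of the skin barrier.

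**Figure D3:**
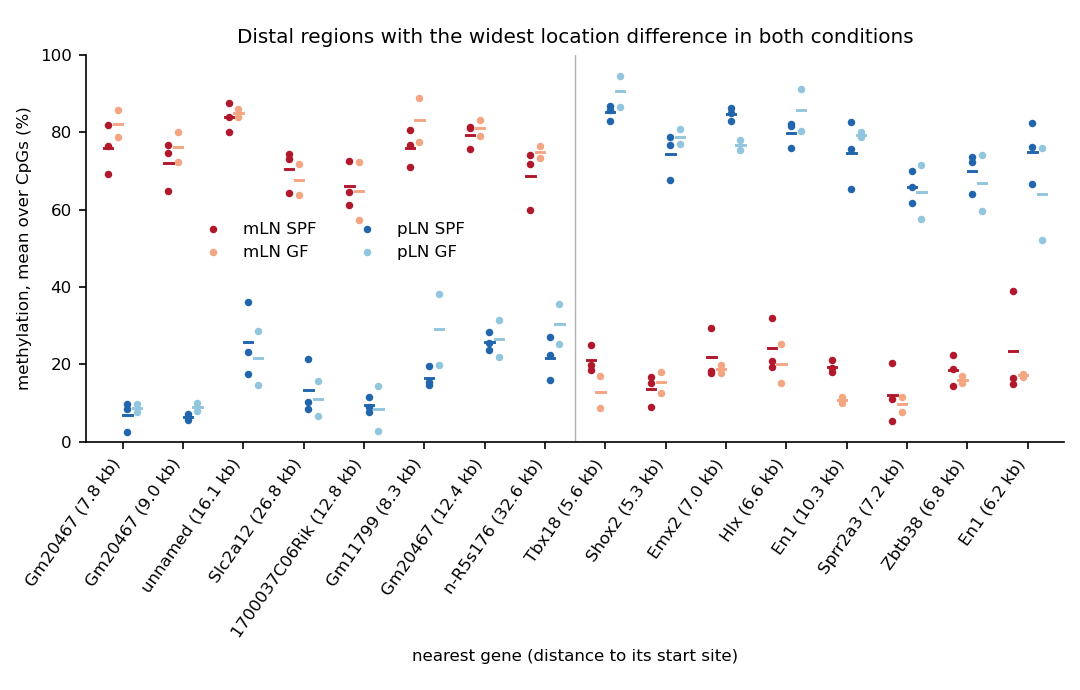
Mean methylation in percent over the CpGs of each region (y axis) for the 16 regions with the widest difference in both conditions, named by nearest gene and distance to its TSS. Each point is a library and each bar a group mean. In the 8 regions left of the line the mLN libraries are above the pLN libraries, and in the 8 right of it they are below.

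Most distal regions stood alone: 391 of the 476 named nearest genes had 1 region, and 386 of the 608 regions had no other within 50 kb. Where several lay close together, they mostly had the same sign. Regions with a gap of at most 50 kb formed 135 neighbouring pairs, and 124 of these (91.9%) had the same direction. In total 222 regions stood in 87 runs of 2 or more. By nearest gene, 85 genes had at least 2 regions, with the same direction throughout at 77 of them, and 20 genes had at least 3 (81 regions), with the same direction at 15. DMRs split by a gap in the CpGs can belong to the same stretch, so these regions are not independent.

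At En1, a homeobox gene of limb, brain and dermal patterning, 8 of 8 regions over 26.6 kb (3 upstream and 5 downstream of the TSS, 108 CpGs) were less methylated in mLN. Over these CpGs the libraries had 13.6%, 11.7% and 20.7% in mLN SPF, 12.5% and 11.9% in mLN GF, 62.2%, 57.7% and 47.3% in pLN SPF and 57.3% and 48.3% in pLN GF. The nodes did not overlap. In the mice not used for the call, 7 of its 7 SPF-called and 6 of its 7 GF-called DMRs were called. At Emx2, 6 of 7 regions were less methylated in mLN, and the exception lay farthest from the TSS, at 34.1 kb upstream. This region (8 CpGs) had 46.3%, 49.2% and 38.2% in mLN SPF and 13.5%, 20.5% and 4.71% in pLN SPF, and it kept its sign in GF mice (27.8 points, SE 5.79, limma adjusted p = 0.00449).

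The T-box genes were mostly less methylated in mLN. Of 16 distal regions at Tbr1, Tbx3, Tbx5, Tbx15 and Tbx18, 15 (93.8%) were less methylated in mLN, against 49.2% of all 608, and the median size of the difference was 35.7 points in SPF mice, against 27.7 points. In the held-out mice 11 of 11 SPF-called and 17 of 17 GF-called DMRs were called, where all distal DMRs had shares of 90.0% and 83.3%. Of these GF-called DMRs, 9 were at Tbx5. The list goes by the name at the nearest TSS, so it leaves out Gm16064, described below, and an intronic region of Tbx18. The latter (4 CpGs), called as less methylated in GF mice, differed by 6.32 points in SPF mice, against its call. With so few DMRs at few loci, T-box genes cannot be set apart from all distal DMRs. Tbx5, a gene of forelimb and heart, had 7 regions over 73.2 kb. In 6 of them the mLN libraries lay between 0.962% and 28.7%, and over the 113 CpGs of the locus the libraries had 6.73%, 7.26% and 13.2% in mLN SPF, 6.48% and 7.31% in mLN GF, 47.0%, 42.0% and 41.3% in pLN SPF and 45.5% and 43.8% in pLN GF. Over its coding exon (31 CpGs) mLN SPF had 2.63%, 4.72% and 6.74% and pLN SPF 54.2%, 46.5% and 45.7%. The region of opposite sign was again the outermost on its side, at 33.4 kb downstream, with 64.8%, 38.6% and 44.8% in mLN SPF against 9.17%, 26.4% and 7.3% in pLN SPF. Tbx3, a gene of limb and mammary patterning on the same chromosome, had 4 regions 5.9 to 11.5 kb upstream, which held 22.8%, 21% and 27.5% in mLN SPF and 60.3%, 65.9% and 61.1% in pLN SPF. Tbx15, a gene of skin and skeletal patterning, had 1 region in an intron of its neighbour Wars2, with 12.5%, 15.3% and 11.4% in mLN SPF and 64.1%, 68.2% and 69.7% in pLN SPF (a difference of -54.3 points), in a DMR called in GF mice.

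Twist1, a basic helix-loop-helix gene of cranial and limb mesenchyme, had 4 of 4 regions downstream and less methylated in mLN (57 CpGs). The libraries had 12.6%, 13.4% and 17.6% in mLN SPF, 14.4% and 17.1% in mLN GF, 67.0%, 58.5% and 70.9% in pLN SPF and 64.0% and 56.7% in pLN GF. Tcf21, of the same protein class and needed for spleen and for visceral mesenchyme, went the other way in 3 of 3 regions (92 CpGs), with 57.8%, 53.8% and 56.1% in mLN SPF, 57.7% and 56.9% in mLN GF, 17.0%, 20.2% and 20.9% in pLN SPF and 16.9% and 22.9% in pLN GF. All DMRs of both genes were called in the mice not used for the call (1 of 1 and 4 of 4 at Twist1, 3 of 3 and 4 of 4 at Tcf21). With Sim1, Sim2 and Hand1, the class had 11 regions, of which 5 were more and 6 less methylated in mLN, and 5 of 7 SPF-called and 9 of 9 GF-called DMRs were called in the held-out mice.

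The homeobox genes had 37 distal regions at 17 genes, of which 25 (67.6%, against 49.2% of all 608) were less and 12 more methylated in mLN. In the held-out mice 30 of 32 SPF-called DMRs (21 lower and 9 higher in mLN) and 20 of 22 GF-called DMRs (16 lower and 4 higher) were called, near the 90.0% and 83.3% of all distal DMRs. Regions more methylated in mLN lay at Nkx3-2, a gene of visceral and axial mesenchyme, where 3 regions had 68.2%, 63.7% and 60.5% in mLN SPF and 35.9%, 27.7% and 40.2% in pLN SPF, and at Isl1, Gsc, Meox2, Pou1f1, Prrx1, Satb1, Uncx and, as given above, Emx2. At Nkx3-2 the GF libraries were closer, with 60.1% and 48.8% in mLN and 36.2% and 28.5% in pLN, and 1 of the 3 SPF-called DMRs was not called in GF mice (10.3 points, SE 9.22, limma adjusted p = 0.322). The 8 regions beside Gm20467, which are named by that transcript and are not in this list, were more methylated in mLN in 8 of 8 cases, with 78.1%, 75.9% and 68.8% in mLN SPF, 78.7% and 76.6% in mLN GF, 16.5%, 19.8% and 17.1% in pLN SPF and 22.5% and 20.8% in pLN GF. Downstream of Gm23093, whose nearest coding gene is Meis1, a partner of Hox proteins, 4 of 4 regions were less methylated in mLN (37.0%, 33.8% and 35.3% in mLN SPF, 64.2%, 64.4% and 66.9% in pLN SPF), although the Meis1 start is 263204 to 270075 bp away.

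The other 11 genes with 3 distal regions were mostly no patterning genes. All 3 regions were more methylated in mLN at Gm23198, Gm24940 (between Prrx1 and Gorab), Pgm5, an actin-associated protein gene, and Tmem108, and all 3 were less methylated at Gm14300 (in introns of the cadherin gene Cdh4), Tacc3, Tshz2, a zinc-finger gene, and Wnt2b. The direction was mixed at Gm11676, Mir5120 (in introns of Pax5) and Mtus2. By group means in SPF mice, the widest separation of these 11 was at Gm24940 (27 CpGs), with 72.3%, 71.4% and 65.7% in mLN SPF, 62.3% and 69.3% in mLN GF, 11.2%, 23.8% and 14.2% in pLN SPF and 25.9% and 23.5% in pLN GF. At Wnt2b the 3 regions held 12 CpGs in all, and 1 of them differed by only -3.19 points in the GF mice in which it was called.

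**Figure D4:**
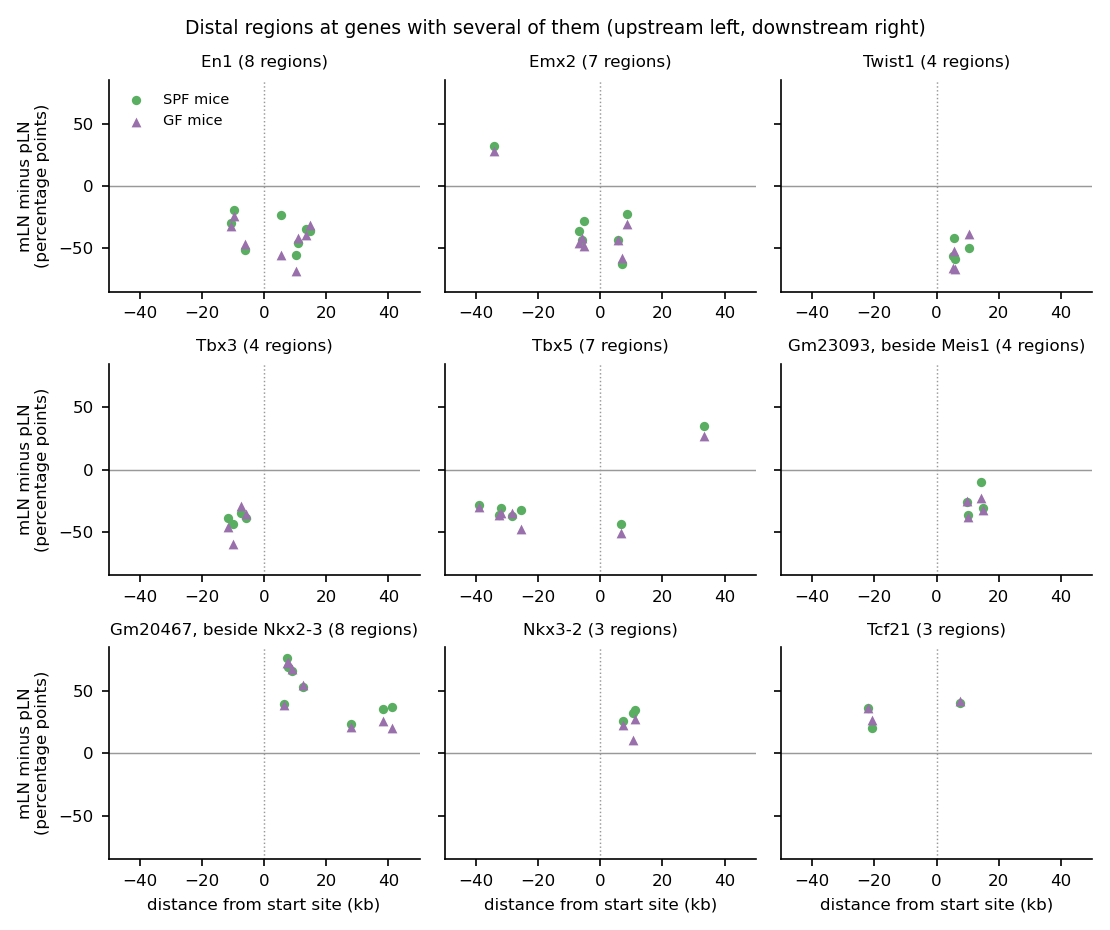
Difference of mLN minus pLN in percentage points (y axis) in SPF mice (circles) and GF mice (triangles) against the signed distance in kb from the TSS of the nearest gene (x axis, upstream left), for 9 genes with 3 or more distal regions. En1, Twist1, Tbx3 and Gm23093 lie below zero in each of their regions, Gm20467, Nkx3-2 and Tcf21 above, and Emx2 and Tbx5 each have 1 region of opposite sign.

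Single CpGs of the long regions mostly had the sign of their region, which the call of a DMR itself favours. In the longest Tcf21 region (65 CpGs), 63 CpGs were higher in mLN and 46 differed by at least 25 points. In the longest En1 region 39 of 39 CpGs were lower in mLN, 34 by at least 25 points, and in the longest Tbx5 region 40 of 40 were lower, 27 by at least 25 points.

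**Figure D5:**
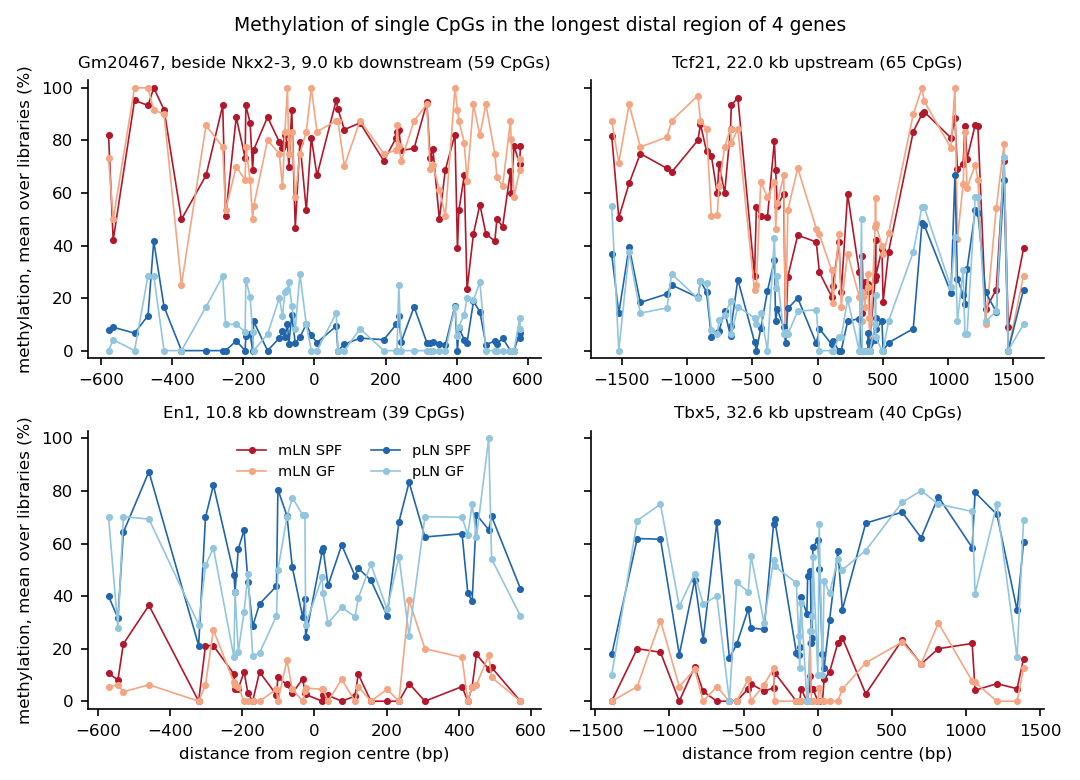
Methylation in percent of single CpGs (mean over the libraries of a group, y axis) against the distance in bp from the region centre (x axis) for the distal region with the most CpGs at 4 genes. Red and orange lines (mLN SPF and GF) lie mostly above blue lines (pLN SPF and GF) at Gm20467 and Tcf21, with points close together in parts of Tcf21, and mostly below them at En1 and Tbx5.

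The lists of signalling genes and of lymph node function held between 1 and 7 distal regions each. These lists are short: the distal regions were 50% of the location regions of the Wnt list, 57.1% of those of BMP and TGF-beta, 60% of hedgehog and FGF, 58.3% of guidance, 36.8% of matrix, 50% of lymph node stroma and 16.7% of retinoid and prostaglandin genes, against 38.3% over all genes. Wnt signalling genes had 7 (2 more and 5 less methylated), with 3 less methylated regions at Wnt2b, genes of BMP and TGF-beta signalling had 4 (all more methylated, at Gdf6, Smad1, Tll2 and Bmp2k), hedgehog and FGF genes 3 (all less methylated, at Ptch1, Fgf5 and Hhipl2), guidance genes 7 (4 more and 3 less) and matrix genes 7 (3 more and 4 less). A further group of transcription factors had 15 regions, 4 more and 11 less methylated, the latter including Nr2f2, Tshz2 and Osr2. In the held-out mice, called DMRs numbered 2 of 2 SPF-called and 5 of 7 GF-called for Wnt, 2 of 2 and 2 of 3 for BMP and TGF-beta, 2 of 2 and 2 of 2 for hedgehog and FGF, 5 of 5 and 5 of 5 for guidance, 4 of 4 and 2 of 5 for matrix, and 8 of 9 and 9 of 12 for the further transcription factors. All distal DMRs had shares of 90.0% and 83.3%, and with so few members no list can be set apart from them. Of genes for chemokines, cytokines and receptors of lymph node stroma, only Nod2, a sensor of bacterial cell wall, and Tnfsf11, the cytokine RANKL of lymph node formation, had a distal region, with 1 each.

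At Nod2 an intronic region (chr8:88661938-88662642, 9 CpGs) had 54.3%, 58.4% and 52% in mLN SPF, 31.8%, 32.0% and 38.1% in pLN SPF, 48.4% and 62.2% in mLN GF and 37.3% and 38.8% in pLN GF. The GF difference was 17.2 points (SE 5.66, limma adjusted p = 0.027), a call that was lost without replicate 2 of mLN GF (10.3 points, adjusted p = 0.127) or without either pLN GF library (16.5 and 17.9 points, adjusted p = 0.0948 and 0.0784). At Tnfsf11 an intronic region (chr14:78295636-78296581, 17 CpGs), called in GF mice, had 42.8% and 53.8% in mLN GF, 79.0% and 80.9% in pLN GF, 56.6%, 71.4% and 70.6% in mLN SPF and 83.6%, 82.6% and 72.9% in pLN SPF. The SPF groups nearly touched (-13.5 points, SE 5.52, limma adjusted p = 0.0418), and the call was lost without replicate 1 of mLN SPF (-8.7 points, adjusted p = 0.156) or without replicate 1 or 2 of pLN SPF (-11.5 and -12.1 points, adjusted p = 0.119 and 0.109). Ptgis, which encodes prostacyclin synthase, was the 1 gene of retinoid and prostaglandin metabolism with a distal region. Its intronic region (11 CpGs), called in SPF mice, had 48.2%, 26.7% and 34.5% in mLN SPF and 60.8%, 73.5% and 59.8% in pLN SPF. In GF mice mLN held 65% and 52% and pLN 61.8% and 57.8%, so the nodes overlapped (-1.29 points, SE 5.6, limma adjusted p = 0.833).

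A few distal DMRs had the opposite sign in the mice not used for the call, namely 6 of 289 SPF-called DMRs (median of 4 CpGs, against 17 over all of them) and 8 of 515 GF-called DMRs (4.5 CpGs, against 9). In the unsmoothed values of the libraries on which they were called, some DMRs differed by under 10 points in the direction of the call. These were 15 of the SPF-called (5.19%, against 5.58% of all 806) and 32 of the GF-called DMRs (6.21%, against 5.49% of all 1293). Both shares were near those of the whole lists. This set overlaps the DMRs of opposite sign: at Polq, called in SPF mice, the difference was 1.38 points in SPF and -4.52 points in GF mice. The DMRs furthest against their call are given as values, since their held-out value chose them. At Hand1, a gene of heart and limb mesenchyme, the region 5630 bp upstream (6 CpGs) had 64.6%, 62.6% and 42.8% in mLN SPF, 14.3%, 26.8% and 37.7% in pLN SPF, 27.5% and 38.3% in mLN GF and 47.8% and 33.3% in pLN GF, so its GF difference was -7.65 points (SE 6.58). At Gm12017 a region called in both conditions (4 CpGs) averaged 91.3% in mLN (SD 10.1) and 91.4% in pLN (SD 5.29) under SPF housing, 3 libraries each, and 91.1% and 93.7% under GF housing, 2 libraries each. The regions at Polq and Gm6272, an intronic region of Tbx18 and 1 at Dcdc5 had held-out differences between -11.2 and 6.32 points.

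To ask whether housing moved the distal regions, housing was tested over all 10 libraries with location in the model. By limma, 0 of the 608 regions were called for housing (0% of all 1586 regions), and 20 (3.29%, where all 1586 had 3.78%) reached an unadjusted p under 0.05, and the lowest adjusted p was 0.995. The median size of the effect was 2.6 points and its median SE 3.86 points. The interaction, in which the location difference depends on housing, was called by limma in 0 of 608 (0% of all 1586), and 53 (8.72%, where all 1586 had 8.70%) reached an unadjusted p under 0.05, and the lowest adjusted p was 0.278. Its median size was 6.65 points and its median SE 7.46 points, so changes of up to several SEs could be missed with these numbers of libraries. A call in a single housing condition selects for a difference there, which by itself favours an interaction. Among the 165 regions called in both conditions, 2 (1.21%) reached a limma unadjusted p under 0.05 for the interaction. A call in both conditions selects for similar differences and so works against an interaction. Neither share can therefore show how often the location difference depends on housing.

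The regions with the smallest unadjusted p are given as values. For housing, a UTR of AI464131 (20 CpGs) had 76.9%, 57.2% and 64.5% in mLN SPF, 50.5% and 54.4% in mLN GF, 43.9%, 43.5% and 44.2% in pLN SPF and 36.2% and 31.9% in pLN GF (11.8 points higher in SPF, SE 3.72, limma adjusted p = 0.995). Regions at 1700034G24Rik and Gm24626 were higher in SPF by 12.7 points (SE 4.05) and 10.4 points (SE 3.37), with the same adjusted p. For the interaction, a coding exon of Mdn1, a gene of ribosome assembly, held 5 CpGs with 83.9%, 88.0% and 84.6% in mLN SPF, 88.6% and 91.7% in mLN GF, 52.2%, 52.5% and 51.8% in pLN SPF and 30.9% and 33.0% in pLN GF. Its location difference was 33.3 points in SPF and 58.2 points in GF mice (interaction -24.9 points, SE 5.27, limma adjusted p = 0.278). Regions at Gm13133, in an intron of Prdm16, and at Gm16064, in an intron of Tbx3os1, had interactions of 35.2 points (SE 9.06) and 29.2 points (SE 7.85), both with a limma adjusted p of 0.362. At Gm16064 the GF-called DMR was called in SPF mice (-19.4 points, SE 7.19, limma adjusted p = 0.028), but not when any of 3 SPF libraries (replicates 1 and 2 of mLN and 3 of pLN) was left out (-17.3, -13.6 and -15.2 points).

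At the limits of the distance rule, the DMRs just inside were less and those just outside more methylated in mLN, with 1 DMR per side. The DMR just inside 5 kb lay 5044 bp from Tbr1, with 66.9% in mLN GF and 93.0% in pLN GF, and the one just outside lay 4982 bp from Gm9946, with 53.7% in mLN SPF and 32.4% in pLN SPF. Just inside 50 kb, a DMR on chromosome 17 at 49647 bp had 13.9% in mLN SPF and 57.8% in pLN SPF, and just outside, at 50145 bp from Gm23179, another had 73.4% and 50.2%. Distances were the authors'. To a coding start of GENCODE, 13 regions lay within 5 kb, 422 between 5 and 50 kb and 173 farther, since many nearest starts belong to non-coding transcripts.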

How the data were processed

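Non-endothelial stromal cells of 10 libraries were compared by whole-genome bisulfite sequencing. Per the labels, the authors used FastQC 0.11.1, cutadapt 1.4 and BSMAP 2.4.3 on GRCm38, and per the study's methods they kept unique, paired, de-duplicated reads, smoothed methylation with bsseq and called DMRs for each pair of groups. The deposited DMR tables also hold smoothed group means and differences, used here only as a filter in an alternative, and the 2 tables of SPF against GF were not used. The deposited CpG values are fractions of methylated reads, not smoothed and without read counts, so depth is unknown and no counting interval is given.

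Each region's level is the mean fraction, times 100, of its CpGs measured in 1 or more libraries of every group, each CpG once. Location signs are mLN minus pLN. All 24182 CpG positions were checked to be C followed by G in the reference. DMRs were merged within distance classes, so 7 distal regions overlap a region of another class. Regions were annotated with GENCODE vM21. Tests used limma 3.58.1 in R 4.3.3 (lmFit, eBayes) on the percent scale with Benjamini-Hochberg adjustment over the whole table: SPF-called DMRs in the 4 GF libraries, GF-called DMRs in the 6 SPF libraries, and housing and interaction over 1586 regions. Each test was first tested on simulated data in which 200 regions were changed. Of 50 regions changed by 20 points, 30 were recovered for SPF-called DMRs, 37 for GF-called DMRs, 41 for housing and 12 for the interaction. Unchanged regions gave 3, 15, 5 and 7 calls, in the same order. In the real held-out libraries most DMRs were called, so the simulation held a smaller share of changed DMRs.

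The regions, gene lists and motifs were chosen with earlier results of these data known. Named regions were the 8 per direction with the widest smaller-of-2 differences among those called in both conditions, genes with at least 3 regions, up to 4 regions per list of homeobox, T-box, helix-loop-helix, lymph node stroma and retinoid or prostaglandin genes, 3 per list with the held-out value furthest against the call, the 3 smallest p for housing and for interaction, and the DMRs at the distance limits. Groups came from the titles, and the main tests did not pair libraries by replicate number. Deviations from group means correlated between -0.0733 and 0.0998 for same-numbered libraries and between -0.138 and 0.121 for others. In groups of 2 libraries these deviations mirror each other. The values therefore cannot decide whether same-numbered libraries had a common origin. Alternatives are in the closing section.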

Additional observations from a re-analysis of the deposited data

Results flagged for a closer look

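At 2410089E03Rik, an 8-CpG region over a coding exon of Nipbl, called in GF mice, the location difference had opposite signs in the 2 conditions and the nodes did not overlap in either. In SPF mice mLN held 73.4%, 82.6% and 82.1% and pLN 84.6%, 82.7% and 85.9%, a difference of -5.05 points. In GF mice mLN held 88.8% and 92.1% and pLN 87.2% and 84.8%, a difference of 4.46 points. The interaction was -9.51 points (SE 5.94, limma unadjusted p = 0.137, adjusted p = 0.652), so the difference between the conditions did not pass the test.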

How the results depend on the processing

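The direction of the mean held-out differences stayed the same in each alternative. A median over CpGs moved the mean to 37.8 points for SPF-called and 31.8 for GF-called DMRs, at least 5 CpGs to 32.0 and 29.0, an authors' difference of at least 0.35 to 46.2 and 42.6, and a lower limit of 10 kb or an upper limit of 25 kb moved the SPF-called mean to 30.6 and 32.1. Called DMRs numbered 50 of 51 and 93 of 96 at a difference of 0.35, which left 100 merged regions, and 170 of 190 and 270 of 333 at an upper limit of 25 kb, both with fewer DMRs by construction. The share more methylated in mLN was 55.7% above 10 kb and 46.6% up to 25 kb, against 50.8% over the whole range. Leaving out 1 library gave 239 to 250 and 403 to 421 called DMRs, with means of 31.0 to 31.9 and 26.8 to 28.6 points, and 0 calls for housing and interaction. Housing and interaction had 0 limma calls in the other alternatives too. Over all alternatives, those that left out 1 library included, 4 to 26 and 7 to 65 regions reached a limma unadjusted p under 0.05. The lowest counts, 4 and 7, were at an authors' difference of at least 0.35. There, only the 99 merged regions that held such a DMR were counted, and the highest counts were out of 608. With the replicate number as a block, limma called 261 SPF-called and 437 GF-called DMRs, and 0 for housing and interaction. The cause of shifts by the median over CpGs was not tested. Signs turned for values that were not called: at Ptgis leaving out 1 library gave -7.81 to 5.23 points, at Polq -9.19 to 0.152, and at Gm12017 (GF-called) -4.46 to 5.45, with 1.25 by the median over CpGs. By that median, Hand1 was called against its sign in GF mice (-16.3 points, adjusted p = 0.043) and the call of Gm16064 was lost (-18.3 points, adjusted p = 0.0656), and Gm13133 was called without replicate 1 of mLN GF (19.0 points, adjusted p = 0.043). With no read counts, short regions are the least precise.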

Other observations

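At 55 genes a distal region and a location region within 5 kb of the TSS had the same nearest gene. The direction was the same at 44 of them, among them En1, Twist1, Tcf21, Isl1, Shox2, Tbx3, Tbx15, Tbx18, Hlx and Nkx3-2. It was opposite at 8, among them Asb14, Gm13203, Mcc, Mecom, Prdm16, Prdm6 and Tspan8, and mixed at Emx2, Runx1 and Tbx5. At Prdm16, a gene of fat and muscle fate, the distal region was more methylated (30.3 and 47.6 points) and its 3 nearer regions less. At Runx1, a RUNX-class gene of blood and mesenchyme, a distal intronic region upstream was more methylated in mLN (80.4%, 84.3% and 82.7% in mLN SPF against 53.9%, 48.0% and 52.6% in pLN SPF). Another one downstream, with 4 CpGs and called as less methylated, had mLN SPF libraries as far apart as 7.14%, 62.5% and 91.7%, so the nodes overlapped. These are counts of regions called for location, given as a description.

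Short DNA motifs were counted on both strands of 300 bp around the centre of each region, as letters and not as sites. In regions shorter than this, down to 7 bp, the window also holds flanking DNA. The less methylated regions were shorter (median 508 bp against 636 bp), and the part of flanking DNA in the shares was not tested. TAATTA, the core of many homeodomain proteins, was in 16.2% of the regions more methylated in mLN and 7.69% of those less methylated, against 11% and 4.84% in the other distance ranges and 9.46% of all 1586 regions. CATATG, an E-box of TWIST-type proteins, was in 11.3% and 3.34%, against 10.2% and 3.02% elsewhere and 6.87% of all. CCCNNGGG, an EBF-type palindrome, went the other way, in 5.50% and 11.4%, against 7.47% and 7.06% elsewhere. The other 9 of the 12 motifs searched differed less between the directions, for example AGGTGTNA of T-box proteins (3.88% and 4.01%), TGACAG of the MEIS family (27.2% and 25.8%), CACTTNA of NK2-class proteins (17.8% and 16.7%), TGTGGT of RUNX proteins (22% and 16.4%) and CAGCTG, the E-box of TCF21 (16.5% and 16.4%). The more methylated regions also had a lower GC content (45.6% against 47.9%, medians), and the part of GC in these shares was not tested.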
